A study of Mus musculus with 6 samples.

Results

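Enteroendocrine cells, the epithelial cells of the gut that release hormones, were taken here as droplet barcodes with transcripts of several endocrine genes at once. They were chosen by their measured counts: a barcode entered when it had at least 300 detected genes, at most 25% mitochondrial counts and at least 1 UMI (a counted RNA molecule) on 3 or more of 12 genes: *Chga*, *Chgb*, *Neurod1*, *Cpe*, *Tac1*, *Tph1*, *Gcg*, *Cck*, *Pyy*, *Ghrl*, *Fev* and *Rfx6*. This rule found 106 of 4890 kept barcodes (2.17%, exact 95% Clopper-Pearson interval 1.78% to 2.62%), which are called members. The levels of the 12 genes chose the members, so they are given as a description and without a test.

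The cells came from Drop-seq, a droplet method that reads the 3′ end of polyadenylated RNA, on crypts freshly isolated from the small intestine, from 10-week-old C57BL6 mice. The mutant mice were Ptger4 epithelial knock-out animals, and the mice they were set against carried Ptger4 flox. *Ptger4* is the gene of the prostaglandin receptor EP4, which raises cAMP in the cell. Each genotype had 3 droplet collections that came from 2 biological replicates, with collections 1 and 2 read as biological replicate 1 and collection 3 as biological replicate 2 from the sample codes. Mice and cells received no treatment. Neither the promoter driving the deletion nor the exons removed are given in the labels, and nothing says whether a biological replicate was 1 mouse or a pool. The knockout collections 1 to 3 held 18, 22 and 25 members among 754, 703 and 981 kept barcodes. The flox collections 1 to 3 held 18, 15 and 8 members among 1053, 473 and 926.

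Enteroendocrine cells arise from crypt stem cells through a short-lived stage that expresses the transcription factor *Neurog3*, followed by *Neurod1* and other factors that remain in the mature cell. Mature cells store peptide hormones or serotonin in dense granules built on chromogranins, and release them through a calcium-triggered machinery shared with neurons. Classical names follow the product: enterochromaffin cells make serotonin, and other types make glucagon-like peptides, cholecystokinin, ghrelin, secretin, neurotensin or the incretin GIP. Several of these products are known to occur together in the same cell.

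All 5 genes given as markers of the cell type, *Chga*, *Chgb*, *Neurod1*, *Cpe* and *Gcg*, are among the 12 genes of the rule, so their presence describes the choice and does not test the name. UMIs of 3 or more of them were found in 79 members (74.5%). *Chgb* was found in 95 members with 5832 UMIs, *Chga* in 86, *Neurod1* in 70, *Cpe* in 52 and *Gcg* in 24. Members held 93.3% of the kept *Chgb* UMIs and 96.1% of the kept *Neurod1* UMIs. The 26 members with exactly 3 of the 12 genes devoted a median of 0.146% of their counts to them, against 0.0610% in the 72 barcodes with 2, which stayed outside. The 80 members with 4 or more devoted a median of 4.71%.

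Members differed widely in depth, and 11 of them had more than 10000 counts, against a median of 1597 over all members and 1260 over the other kept barcodes. Of these 11, 10 carried exactly 3 of the 12 genes. The deepest, in flox collection 3, had 104905 counts, 87.2% of all member counts of that collection, with 8 UMIs on the 12 genes and 586 UMIs of the goblet gene *Tff3*. In addition, 53 kept barcode sequences were found in 2 or more collections, within knockout 1, flox 1 and flox 2, and within knockout 2, knockout 3 and flox 3. These 2 groups of collections are called barcode-sharing sets. The sequences of 18 members were shared in this way, and 1 sequence was a member in 3 collections. Results are therefore also given for the 85 members left when shared barcodes and barcodes above 10000 counts were left out, called the reduced set, an alternative chosen after seeing the data. UMIs of 3 or more goblet markers were found in 40 members and of 3 or more Paneth markers in 41, against 20 and 21 in the reduced set. These were 37.7% and 38.7% of members, near the 32.9% and 38.5% of the other kept barcodes. Summed goblet markers reached 2758, 2062 and 6030 CPM, which are counts scaled to equal library totals, in the knockout members and 5526, 9124 and 19068 CPM in the flox members. They reached 833, 1755 and 1897 CPM in the knockout and 11350, 3463 and 521 CPM in the flox when only the reduced set was summed. All 12 goblet, 12 enterocyte and 12 cycling markers and all 11 Paneth markers in the tables were detected in members. Of 12 tuft markers 7 were detected, with *Dclk1* at 0, and of 11 T or NK cell markers 7 were detected, with *Cd3d* at 0. UMIs of 3 or more T or NK cell markers were found in 4 members (3.77%, against 2.88% of the other kept barcodes), none of them in the reduced set.

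**Figure D1:**
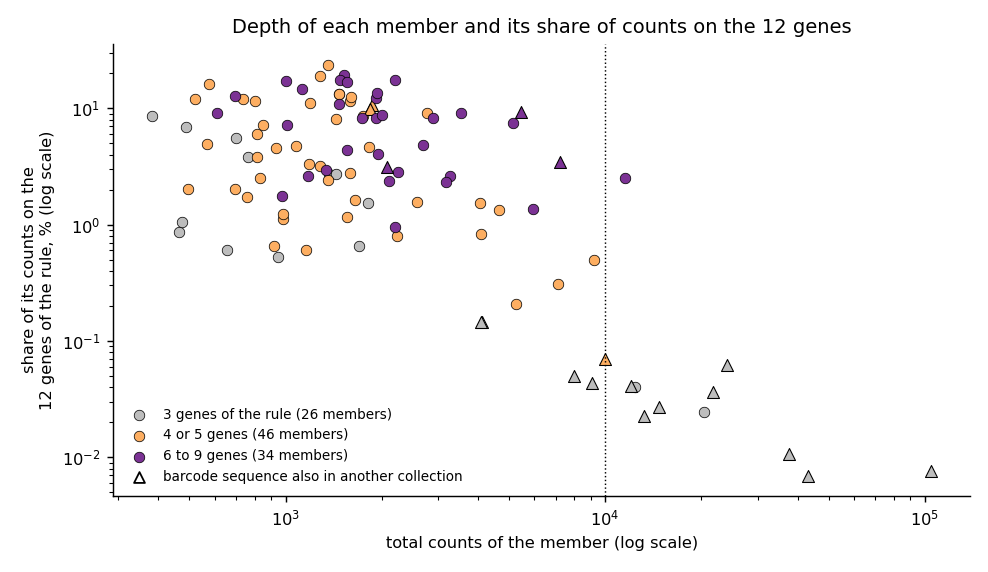
Total counts of each member against the share of its counts on the 12 genes, both on log scales, coloured by how many of the 12 genes it carried; triangles mark shared barcode sequences and the dotted line stands at 10000 counts. Of the 11 members above 10000 counts, 10 have a share of at most 0.062%, and the other has 2.51%.

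Tachykinin and serotonin transcripts occurred together, and they shared a cell with *Gcg* in few members and with *Sct* in many. *Tac1*, *Tph1*, *Gcg*, *Cck* and *Pyy* are among the 12 genes, of which a member needed 3. The rule itself therefore raises how often they meet in a cell, and the pairs below are a description of members only. *Tac1*, which encodes substance P, was found in 53 members and *Tph1*, which encodes the enzyme that starts serotonin synthesis in the gut, in 27, and 24 of these 27 also carried *Tac1*. *Sct*, the secretin gene, which was not among the 12 genes, shared a cell with *Tac1* in 21 members, 46.7% of *Sct* members and 39.6% of *Tac1* members, and with *Tph1* in 9. *Cck* shared a cell with *Tac1* in 6 members, 22.2% of *Cck* members and 11.3% of *Tac1* members. *Gcg*, the precursor gene of the glucagon-like peptides, shared a cell with *Tac1* in 3 members and with *Tph1* in 1. It shared a cell with *Cck* in 17 members, 70.8% of *Gcg* members and 63.0% of *Cck* members. *Pyy* was found in 12 members, of which 9 had *Gcg* and 11 had *Sct*.

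For description, a member was called amine type where its UMIs of *Tac1* and *Tph1* exceeded those of *Gcg*, *Cck*, *Pyy* and *Ghrl*, peptide type where they were fewer, and undecided where they were equal. This gave 48 amine-type, 37 peptide-type and 21 undecided members. No amine-type member had a *Gcg* or *Ghrl* UMI, which partly follows from the definition, and 3 of 37 peptide-type members had *Tac1*. Chromogranin B transcripts were found in all 48 amine-type members (26732 CPM) and in 30 of 37 peptide-type members (1359 CPM). A single member held 42.9% of all counts of the peptide type, so these pooled levels depend on it. In knockout replicates 1 and 2 and flox replicates 1 and 2, the levels were 55780, 9045, 26717 and 59638 CPM in the amine type. In the peptide type they were 2835, 4572, 1025 and 110 CPM. Chromogranin A reached 3939 CPM in amine-type members and 332 CPM in peptide-type members. In the same order of replicates it stood at 8385, 1051, 4254 and 8018 CPM in the amine type and 426, 1390, 347 and 18.3 CPM in the peptide type. The direction was thus the other way in knockout replicate 2. There, amine-type members with 43026 and 13266 counts and shared barcode sequences had 1 *Chga* UMI each. The amine-type level of that replicate therefore depends on them.

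The cells with the most hormone RNA devoted much of it to 1 gene. *Gcg* exceeded 20 UMIs in 10 members. All 10 also had *Cck*, with 10 to 80 UMIs and a median of 35.5, all 10 had *Sct*, and 8 had *Pyy*. In the member with the most *Gcg*, from knockout collection 2, 192 *Gcg* UMIs stood beside 80 of *Cck*, 3 of *Pyy* and 3 of *Sct* among 1524 counts. *Ghrl*, encoding ghrelin, exceeded 20 UMIs in 6 members, 1 of which also had more than 20 of *Gcg*. That member, with a shared barcode sequence and 7209 counts in flox collection 1, had 171 *Ghrl*, 27 *Cck* and 21 *Gcg* UMIs. *Gip* exceeded 20 UMIs in 4 members, none of them with more than 20 of *Gcg* or *Ghrl*. Their *Gip* UMIs were 383 in flox collection 1, 353 and 41 in knockout collection 2 and 26 in knockout collection 3. A single member of knockout collection 2 carried all 169 *Nts* (neurotensin) UMIs found in members, beside 15 of *Sct*, 11 of *Cck* and 1 of *Gcg*. *Sst*, the gene of somatostatin, which marks D cells, was found in 0 of 106 members, which allows a share of up to 2.83% of members with a UMI, and in 16 other barcodes with 1 UMI each.

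Counting over 9 hormone genes (*Gcg*, *Cck*, *Pyy*, *Ghrl*, *Sct*, *Gip*, *Tac1*, *Tph1* and *Nts*), *Tac1* with *Tph1* was the most frequent pattern with 14 members. *Tac1* alone had 13, *Sct* with *Tac1* 8, and *Gcg*, *Cck*, *Pyy* and *Sct* together 7. No hormone was found in 16 members. Over a list of 19 hormone genes that leaves out *Tph1*, at least 2 were found in 54 members (50.9%). The same was found in 41 of the 85 in the reduced set and in 28 of 101 after each was thinned to 500 UMIs. With membership by 2 of the 6 rule genes that are no hormone or amine genes, it was 54 of 130 (41.5%). Mixed barcodes, with UMIs of 3 or more Paneth, goblet, tuft, T or NK, or B or plasma markers, made up 51 members. Without them the mean share over biological replicates was 26.6% in the knockout and 35% in the flox, against 50% and 53.8% with them. Hormones within the rule raise the share among members. Low shares can come from free RNA in the droplets. Other kept barcodes, most of which should lack these genes, had a UMI of *Gcg* in 0.753%, of *Tac1* in 1.78% and of *Sct* in 5.37%, at a median depth of 1260 counts, against 22.6%, 50% and 42.5% of members.

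**Figure D2:**
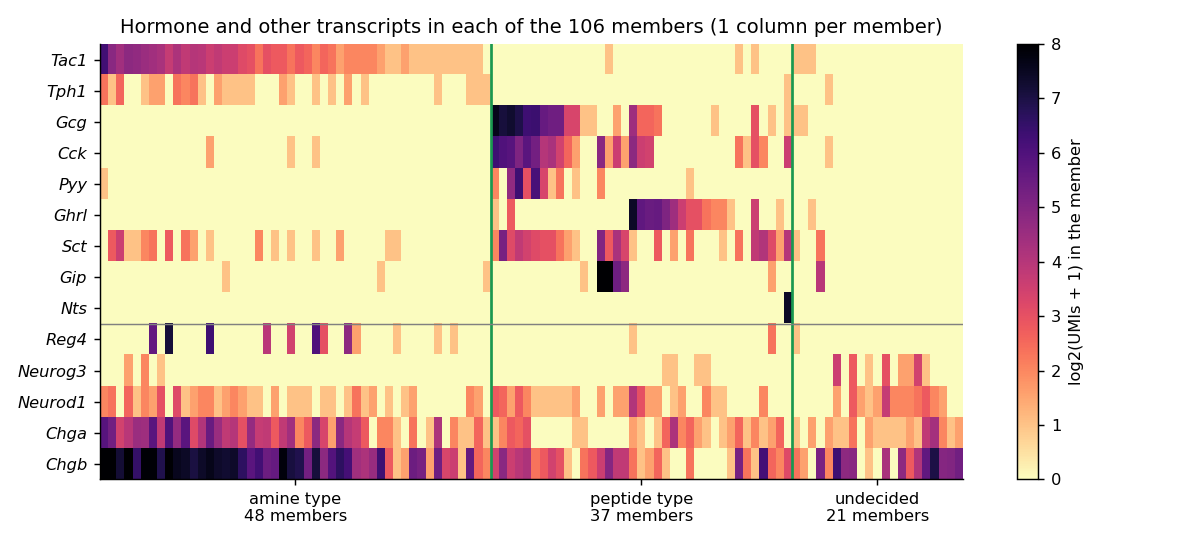
UMIs of hormone genes (above the grey line) and of other genes in each member, 1 column per member on a log2(UMIs + 1) colour scale, split by green lines into 48 amine-type, 37 peptide-type and 21 undecided members. *Tac1* and *Tph1* fill the left block, *Gcg* with *Cck* and *Sct* the start of the middle block, and *Neurog3* is most frequent in the right block.

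Of the 21 undecided members, 16 had no hormone UMI, which the definition admits, and 8 carried *Neurog3*, the gene of the transcription factor that starts the endocrine programme. In all, 15 members had 50 *Neurog3* UMIs, against 10 UMIs in 6 of the 4784 other barcodes. *Neurog3* was not among the 12 genes. Of these 15, 8 had no hormone UMI, against 8 of the 91 members without *Neurog3*, at median depths of 1820 and 1592 counts. None of the 15 had *Gcg* or *Cck*, while 3 had *Tac1* and 4 had *Ghrl*. *Pax4*, a factor of the endocrine progenitor stage, was in 6 of 15 against 4 of 91. *Sox4*, another early factor, was in 10 of 15 against 29 of 91. These are counts of cells pooled over collections and were not tested. By collection, *Neurog3* members numbered 1, 5 and 4 in the knockout and 4, 1 and 0 in the flox.

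Genes outside the rule were then compared between the summed counts of members and of all other kept barcodes, paired within the 4 biological replicates (edgeR's quasi-likelihood test, Benjamini-Hochberg adjustment, threshold 0.05). Of 8531 genes tested, 229 (2.68%) passed, 137 higher (1.61%) and 92 lower (1.08%). The reduced set gave 853 of 7835 (10.9%), 250 higher (3.19%) and 603 lower (7.7%). Both gave 100 higher genes in common, 73.0% of the 137 and 40% of the 250, and 68 lower genes, 73.9% of the 92 and 11.3% of the 603. The median log2 fold change over all tested genes was -0.05 with all members and -0.31 in the reduced set. Genes with few counts were not tested. Some listed genes reached the count minimum through the members, where they are high, so the number of higher genes in a list says which genes were called and supports nothing about the list. For such a gene the fold change is a description, and its call adds no support.

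Several transcription factors of the endocrine programme were higher in members. Of 26 listed factors, 3 belonged to the rule and 9 others were tested. Of these 9, 7 were called higher and 0 lower. *Nkx2-2* reached 59.2 CPM in members with 31 UMIs, against 0.0916 CPM from 1 UMI in the other barcodes, a ratio of 646 with an exact 95% counting interval from 108 to 26341. The log2 fold change of *Pax6* reached 7.80 (SE 0.52) and that of *Isl1* 7.06 (SE 0.49). *Pax6* was at 111, 176 and 112 CPM in knockout members and 188, 28.1 and 24.9 CPM in flox members, with 4 UMIs in all other barcodes together. It therefore entered the test through the members, where it is high. *Runx1t1*, a transcriptional corepressor gene, was higher by 7.55 (SE 0.57) and *Peg3*, an imprinted zinc finger gene, by 7.31 (SE 0.59).

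Some genes of the secretory granule and of peptide processing were called as well. On a list of 13 genes, granule protein genes and others grouped with them, 2 were part of the rule, 4 were tested and 3 were higher: *Scg3*, *Bex2* and *Ptprn2*. *Bex2* was on this list and is not itself a granule protein gene. *Scg3*, encoding secretogranin III, which binds chromogranin A in the granule, had 38 UMIs in members and 1 in the other barcodes, a ratio of 792 with a counting interval from 134 to 32106. *Ptprn2*, a granule membrane protein gene, was higher by 4.35 (SE 0.40). Of 8 processing genes 3 were tested and 2 were higher. These were *Pcsk1*, the prohormone convertase that cuts proglucagon into glucagon-like peptides, by 4.34 (SE 0.48), and *Pam*, which amidates peptide hormones, by 4.75 (SE 0.46). *Pcsk1* was found mostly in the amine type, in 20 of 48 members with 27 UMIs. In the peptide type, which held the members with high *Gcg*, it was found in 4 of 37 with 5 UMIs.

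Genes of serotonin synthesis and storage were higher in 3 of 7 tested of 9 listed. *Ddc*, the decarboxylase of the second step, was detected in 85 members with 225 UMIs and was higher by 2.96 (SE 0.24). *Gch1*, which supplies the cofactor of *Tph1*, was higher by 3.14 (SE 0.29), and *Slc18a1*, the vesicular amine transporter, by 3.54 (SE 0.42). *Ddc* was found in 42 of 48 amine-type and 27 of 37 peptide-type members, and *Slc18a1* in 17 of 48 and 3 of 37.

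Genes of the release machinery and of ion channels known from neurons were also called. Of 21 vesicle release genes 9 were tested and 6 were higher. *Cplx2*, encoding complexin 2, which clamps the fusion machinery, was found in 57 members and was higher by 6.03 on the log2 scale (SE 0.33). *Cplx2* stood at 400, 592 and 192 CPM in knockout members and at 166, 141 and 91.5 CPM in flox members. *Rab3c*, a vesicle GTPase gene, had 51 UMIs in members and 3 in the others, a ratio of 354 with a counting interval from 115 to 1775. Of 17 channel genes 3 were tested, and the 3 called were *Scn3a*, a voltage-gated sodium channel, higher by 7.86 (SE 0.47), *Cacna1a*, a calcium channel, by 3.56 (SE 0.41), and the channel subunit *Cacna2d1*, with 27 UMIs against 3. *Ffar2*, a receptor for short-chain fatty acids, was the 1 tested gene of 20 listed receptors, and was higher by 3.41 (SE 0.28).

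Hormones outside the rule that were tested were *Gip*, higher by 8.20 (SE 0.44), and *Sct*, higher by 3.74 (SE 0.32). The *Gip* value rests on few cells, since 2 members held 383 and 353 of its 823 UMIs and knockout collection 1 had none. *Sct* was spread more evenly, at 1535, 1777 and 450 CPM in knockout members and 233, 478 and 133 CPM in flox members. The other kept barcodes stood at 22.8 to 42.5 CPM, so every collection's members were above them. Beyond the lists, *Vim*, an intermediate filament gene, was higher by 4.70 (SE 0.36), *Map1b*, a neuronal microtubule protein gene, by 6.45 (SE 0.44), and *Fam183b* by 5.91 (SE 0.39). *Reg4*, a secreted lectin gene, was higher by 4.34 (SE 0.38). Across 4603 barcodes thinned to 500 UMIs, the genes whose detection followed the number of detected rule genes most closely were *Cplx2* (Pearson r = 0.44), *Fam183b* (0.41), *Scn3a* (0.39), *Scgn* (0.38) and *Hmgn3* (0.37), as a description across barcodes that share libraries and depth.

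Genes of other epithelial lineages were lower in members. All 12 enterocyte markers were tested, and 5 were lower and 0 higher: the fatty acid carriers *Fabp1*, by -3.44 on the log2 scale (SE 0.32), and *Fabp2*, and the apolipoproteins *Apoa1*, by -3.33 (SE 0.23), *Apoa4* and *Apoc3*. In the reduced set 6 were lower and 1 was higher, *Krt20*, a keratin gene of mature enterocytes (1.17, SE 0.22), which stood at 0.51 (SE 0.21) and did not pass over all members. *Fabp6*, the ileal bile acid carrier gene, was lower by edgeR at -2.0 (SE 0.32) and missed the threshold by DESeq2 (adjusted p = 0.0735). Of 12 goblet markers 9 were lower and 0 higher, with a median of -1.35. Of 11 Paneth markers tested 3 were lower, of 12 cycling markers 3, and of 9 stem markers 4. *Olfm4*, a stem cell gene, stood at -2.83 (SE 0.57). The T and B cell genes *Ccl5* (-3.28), *Igkc* (-3.13) and *Gzma* (-2.34) were lower against all other barcodes. With immune-marked barcodes left out of these, *Igkc* stood at 1.13 (edgeR adjusted p = 0.418) and *Gzma* at 2.26 (edgeR adjusted p = 0.00650). *Areg*, an EGF receptor ligand gene on the cAMP list, was lower by edgeR at -1.54 (SE 0.22), and *Prkar1a*, a regulatory subunit of protein kinase A, was higher by 1.31 (SE 0.23). The other 10 tested genes of the 12 on that list did not pass.

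**Figure D3:**
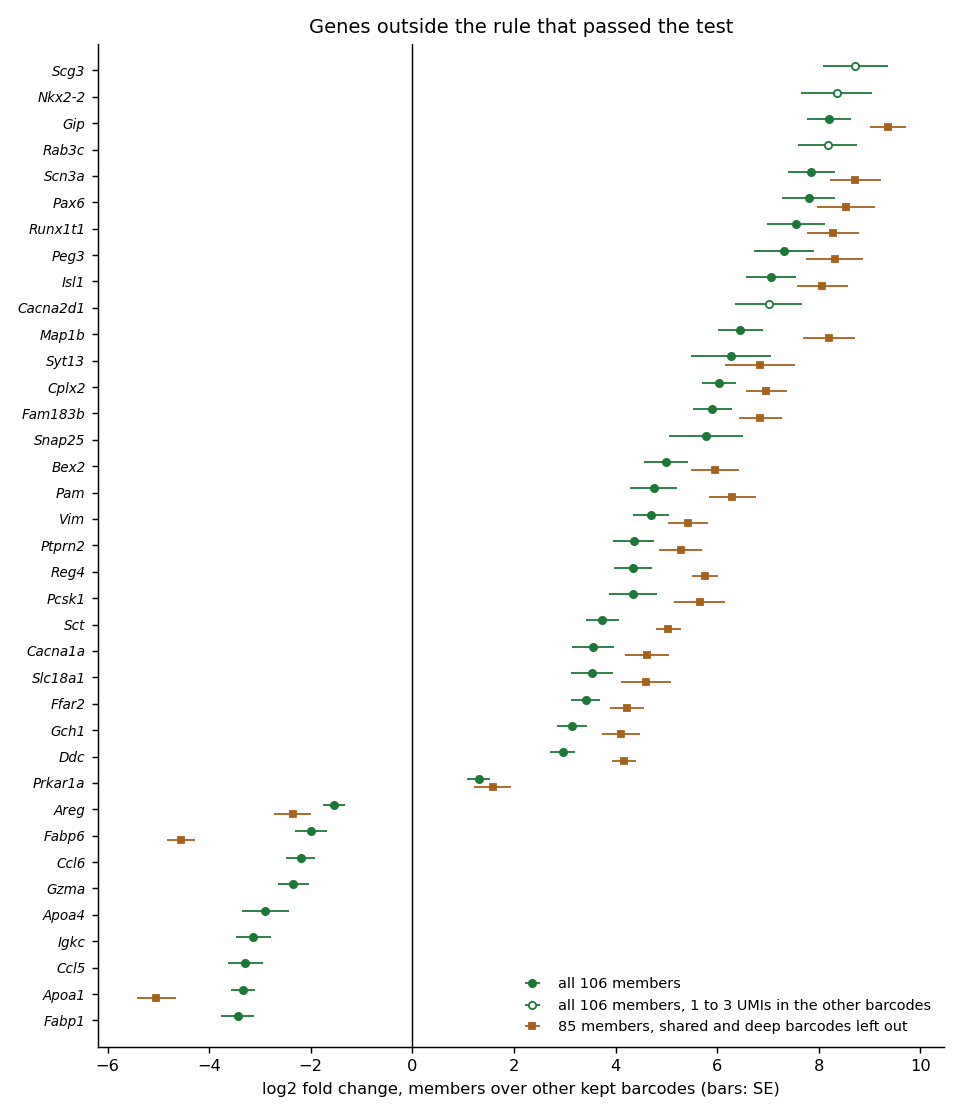
Log2 fold changes of members over other kept barcodes for the named genes outside the rule that passed the test, with SE bars, over all 106 members (green) and the reduced set of 85 (brown); open points have 1 to 3 UMIs in the other barcodes, and brown points are left out there and where the reduced set had 3 UMIs or fewer. Endocrine genes lie at the right, from 8.72 for *Scg3* down to 1.31 for *Prkar1a*, and genes of other lineages at the left.

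Promoter sequences from RefSeq (build GRCm38.p6, 250 bases before to 50 after the start) are shown for genes described here that hold a known element. The cAMP response element, TGACGTCA, which reads the same on both strands, stood 72 bases before the start of *Chgb* (chr2:132781392-132781691, plus strand) and 78 bases before the start of *Pcsk1* (chr13:75089607-75089906, plus strand), and is in capitals.
Chgb: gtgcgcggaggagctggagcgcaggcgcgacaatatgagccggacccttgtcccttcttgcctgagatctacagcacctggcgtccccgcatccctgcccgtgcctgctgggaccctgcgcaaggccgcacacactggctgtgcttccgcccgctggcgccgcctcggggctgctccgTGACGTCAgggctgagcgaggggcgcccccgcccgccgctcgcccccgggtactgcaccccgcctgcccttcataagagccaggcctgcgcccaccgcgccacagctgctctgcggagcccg
Pcsk1: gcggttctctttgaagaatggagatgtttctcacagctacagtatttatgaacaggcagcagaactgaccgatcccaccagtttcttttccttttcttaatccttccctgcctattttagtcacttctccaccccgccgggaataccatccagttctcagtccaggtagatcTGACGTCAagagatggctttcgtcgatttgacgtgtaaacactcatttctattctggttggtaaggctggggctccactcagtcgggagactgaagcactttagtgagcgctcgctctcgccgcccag
The element was in 1.79% of all 32851 promoters. It was in 4 of the 81 higher genes with a promoter in the table (4.94%; *Pax6*, *Pcsk1*, *Peg3* and *Prkar1a*), near the 3.77% of the 6394 tested genes with one. These matches are descriptions of letters and not of bound sites.

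Members also differed from the other barcodes in features that no single gene sets. The median mitochondrial share was 2.83% ± 0.464 in members and 5.29% ± 0.981 in the others (SD, n = 4 biological replicates, lower in 4 of 4, exact paired two-sided permutation p = 0.125, the smallest possible). In the single collection flox 2 the members stood above the others, at 4.23% and 3.22%. After thinning to 500 UMIs, 382 ± 6.93 genes per cell were detected in members and 362 ± 2.94 in the others (higher in 4 of 4, exact p = 0.125). After thinning, 2 or more of 12 cycling markers were found in 18.0% ± 9.07 of members and 31.1% ± 2.66 of the others (lower in 4 of 4, exact p = 0.125). In the single collection flox 1 these shares were 33.3% of members and 32.6% of the others.

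Within members, *Reg4* was higher in the amine type, through a minority of its cells. Of 927 genes outside the rule tested between both types, paired within biological replicates, 2 passed (0.216%; 1 higher and 1 lower, 0.108% each). *Reg4* had 124, 18, 204 and 48 UMIs in the amine-type members of knockout replicates 1 and 2 and flox replicates 1 and 2, against 0, 0, 1 and 4 UMIs in the peptide-type members. Its log2 fold change was 7.65 in favour of the amine type (SE 0.47; adjusted p by edgeR = 0.000208). It was found in 12 of 48 amine-type and 2 of 37 peptide-type members. All 5 members with more than 20 *Reg4* UMIs were amine type and had 80, 27, 64, 139 and 48 of the 394 UMIs of that type, with 3 to 20 UMIs of *Tac1* and 72 to 248 of *Chgb*. Among reduced-set members, 392 *Reg4* UMIs in the amine type stood against 0 in the peptide type, at least 121-fold higher against a floor of 3 UMIs over the group. *Lmx1a*, a transcription factor gene known from enterochromaffin cells, was in 14 of 48 amine-type and 0 of 37 peptide-type members, too few UMIs for a test.

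*Cdkn1a*, encoding the cell cycle inhibitor p21, was lower in the amine type, by -2.93 (SE 0.39, edgeR adjusted p = 0.0344). It had 4, 10, 9 and 0 UMIs in the amine type, in the same order of replicates, and 27, 27, 75 and 26 UMIs in the peptide type. The peptide type of flox replicate 2 had only 2 members, among them the barcode with 104905 counts and 586 *Tff3* UMIs. The *Cdkn1a* value of that replicate depends on this barcode. It was found in 11 of 48 amine-type and 29 of 37 peptide-type members. Over 13 alternatives the *Cdkn1a* value lay between -4.25 and -2.63, and in 5 it missed the threshold, among them leaving out knockout collection 2 or knockout collection 3. It was not tested in the reduced set, where it was found in 5 of 39 and 21 of 28. *Sct* was found in 17 of 48 and 26 of 37. With the reduced set, where 2 of 221 genes passed (0.905%; *Reg4* higher and *Sct* lower, 0.452% each), the *Sct* difference was -2.23 (edgeR adjusted p = 0.0175). The chaperone genes of the endoplasmic reticulum *Hsp90b1* (-0.85, SE 0.26) and *Hspa5* (-0.78, SE 0.24) did not pass the test. Of 13 listed folding and secretion genes 7 were tested and 1 had a positive value, with a median of -0.32 against -0.05 over all genes. Of the goblet markers 6 were tested, none had a positive value and none passed, with a median of -0.98. The part of goblet transcripts in the calls was not tested.

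The knockout was then set against the flox within members, the comparison that asks whether the cells' own profile differs apart from their number. Members made up 2.65% ± 0.139 of kept barcodes in the knockout and 1.51% ± 0.918 in the flox (SD, n = 2 biological replicates, exact two-sided permutation p = 0.33, the smallest possible). The difference of 1.13 percentage points was 0.484 without flox collection 3 and 0.629 without flox collection 1.

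*Ptger4* itself was scarce in members, with 4, 1 and 1 UMIs in the knockout collections and 1, 1 and 2 in the flox collections. In the other barcodes it stood at 15.2, 19.0 and 25.6 CPM in the knockout and 11.9, 13.6 and 14.99 CPM in the flox. Drop-seq reads the 3′ end and the removed exons are not given, so these counts do not check the genotype labels.

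Hormone types were represented in both genotypes. The amine type made up 43.8% ± 5.30 of members in the knockout and 52.5% ± 14.2 in the flox (SD, n = 2). The type is set by genes of the rule, so these shares are a description and are given without a test. The share of members with 2 or more hormones differed by -3.79 percentage points, and by 1.79 in the reduced set. Of the hormones outside the rule, *Sct* was detected in 46.8% ± 13.1 of members in the knockout and 38.4% ± 1.34 in the flox, and *Gip* in 5.75% ± 2.47 and 18.6% ± 9.11. After thinning to 500 UMIs the *Gip* shares were 6.23% ± 2.66 in the knockout and 7.77% ± 6.70 in the flox (exact p = 1). Of the genes in the rule, *Tph1* was in 30% and 8% of knockout members and 30.3% and 37.5% of flox members by biological replicate. *Gcg* was in 20% and 16% of knockout members and 30.3% and 25% of flox members, and after thinning in 16.2% and 17.4% against 15.2% and 12.5%. The summed *Gcg* level was 5893, 4278 and 1435 CPM in knockout members and 919, 2306 and 341 CPM in flox members. Without shared and deep barcodes it was 13488, 5347 and 4842 CPM in the knockout and 2255, 14383 and 2606 CPM in the flox, and the 2 ranges overlapped.

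**Figure D4:**
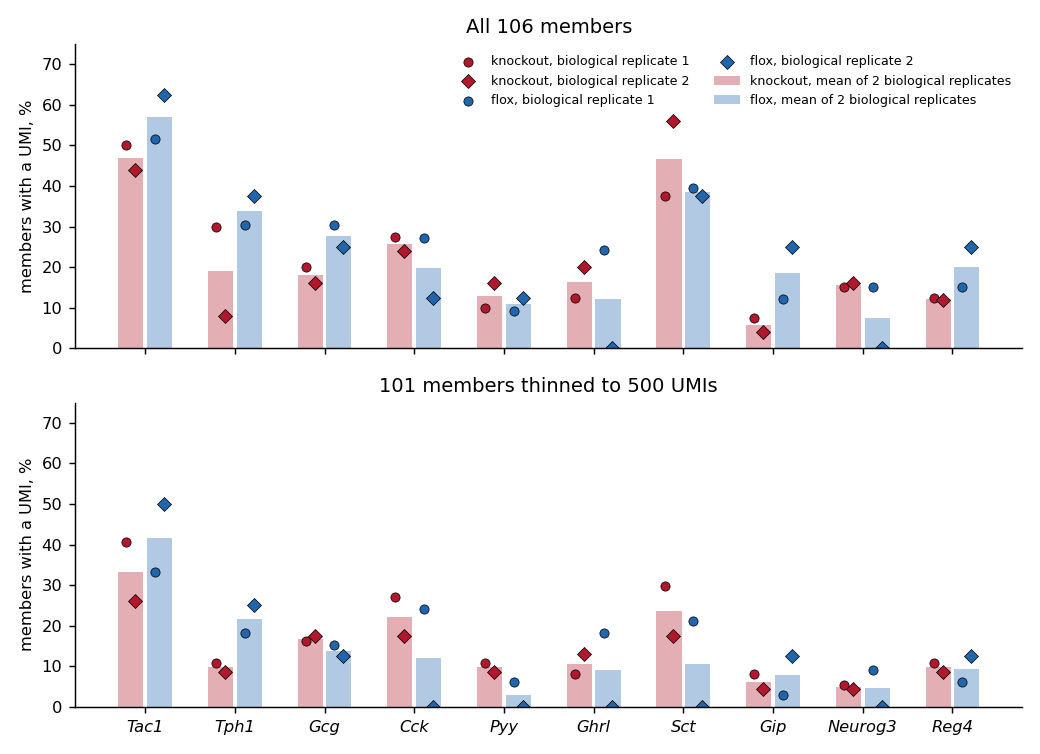
Share of members with a UMI of each gene by genotype (knockout left, flox right of each pair), bars for the mean of 2 biological replicates and points for each replicate, over all members (top) and after thinning to 500 UMIs (bottom). *Gip*, at 5.75% in the knockout and 18.6% in the flox in the upper panel, stands at 6.23% and 7.77% in the lower one.

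No gene passed the test between knockout and flox members: 0 of 2672 (0%) by edgeR, with 95 at an unadjusted p under 0.05, and 1 by DESeq2, *Mt1*. The reduced set gave 0 of 761 (0%), with 41 at an unadjusted p under 0.05. On simulated counts of these sums, the test recovered 77% of genes changed 8-fold and 8% of genes changed 2-fold, so smaller changes were mostly not detectable at this depth. The simulation gave every gene the same spread and changed only genes with a minimum expected count in every sum. Recovery of genes with fewer counts, or with the larger spread that single deep barcodes bring, was not tested and can be lower.

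The gene with the smallest p was *Mt1*, encoding metallothionein 1, which binds zinc and copper, on chromosome 8 (94179082 to 94180327, GRCm38). It stood at 1201, 943 and 1507 CPM in knockout members and at 210, 169 and 91.5 CPM in flox members, so the genotypes did not overlap. This came to 3.19 on a log2 scale (SE 0.45), and the adjusted p by edgeR, 0.0637, missed the threshold. Over 27 alternatives it lay between 2.0 and 4.23, and it passed the threshold in some and missed it in others. It passed with single collections as samples (edgeR adjusted p = 0.00199) and by DESeq2 (adjusted p = 1.52e-06). Single collections are not independent samples, since collections 1 and 2 of a genotype were read as the same biological replicate, and the alternatives include such fits. They also include fits that leave 1 biological replicate in a genotype. Leaving out collection 3 of a genotype is the same fit as leaving out its biological replicate 2, and both are counted. Without flox collection 3, the flox replicate with the lowest level, the fold change was 2.77 and did not pass.

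The *Mt1* difference was as large without shared and deep barcodes, where it also missed the threshold (adjusted p by edgeR = 0.107). There *Mt1* had 26, 36 and 42 UMIs in the knockout collections and 3, 0 and 0 in the flox collections, a ratio of 18.4 with an exact 95% counting interval from 6.11 to 90.5. After thinning to 500 UMIs it was found in 24 of 60 knockout members and 1 of 41 flox members, 39.0% ± 5.98 and 1.52% ± 2.14 (SD, n = 2 biological replicates, exact permutation p = 0.33). By collection these shares were 50%, 36.8% and 34.8% in the knockout and 5.56%, 0% and 0% in the flox. Within barcode-sharing set 1 the log2 ratio was 2.64, and within set 2 it was 3.91. Both hormone types showed this direction. *Mt1* was found in 18 of 29 knockout and 3 of 19 flox members of the amine type, and in 15 of 22 and 6 of 15 of the peptide type.

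The other kept barcodes showed the same direction, with *Mt1* at 1199, 1175 and 1415 CPM in the knockout and 261, 254 and 324 CPM in the flox. In these barcodes the difference was 2.19 on a log2 scale (SE 0.21; adjusted p by edgeR = 0.000788), the 1 call among 10468 genes (0.00955%). It was also the 1 call among 10065 genes when shared and deep barcodes were left out (0.00994%). The difference between members and other barcodes, 0.94 (SE 0.49), did not pass (edgeR, unadjusted p = 0.0574). Without shared and deep barcodes it was 2.04 (SE 0.81, edgeR, unadjusted p = 0.0117), which did not pass after adjustment and rests on 3 *Mt1* UMIs in flox members. *Mt1* reads in members and others come from the same droplet collections, and free RNA was not tested as a source. *Mt2*, another metallothionein gene, had 1, 0 and 31 UMIs in knockout members and 1, 0 and 3 in flox members. The *Mt1* promoter (RefSeq, GRCm38.p6, chr8:94178839-94179138, plus strand) held 3 matches to TGCNCNC, searched on both strands and shown in capitals. This pattern is a looser form of TGCRCNC (R for A or G), the core of the metal response element by which zinc induces this gene. The first match began 23 bases before the RefSeq start and the last began after it.
Mt1: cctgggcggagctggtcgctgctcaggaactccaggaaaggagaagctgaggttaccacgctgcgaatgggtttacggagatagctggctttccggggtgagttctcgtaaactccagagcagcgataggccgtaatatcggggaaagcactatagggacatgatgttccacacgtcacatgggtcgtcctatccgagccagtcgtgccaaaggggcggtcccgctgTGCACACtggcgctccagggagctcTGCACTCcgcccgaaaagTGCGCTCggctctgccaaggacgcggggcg
A match to TGCNCNC was found in 51% of all promoters in the table.

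**Figure D5:**
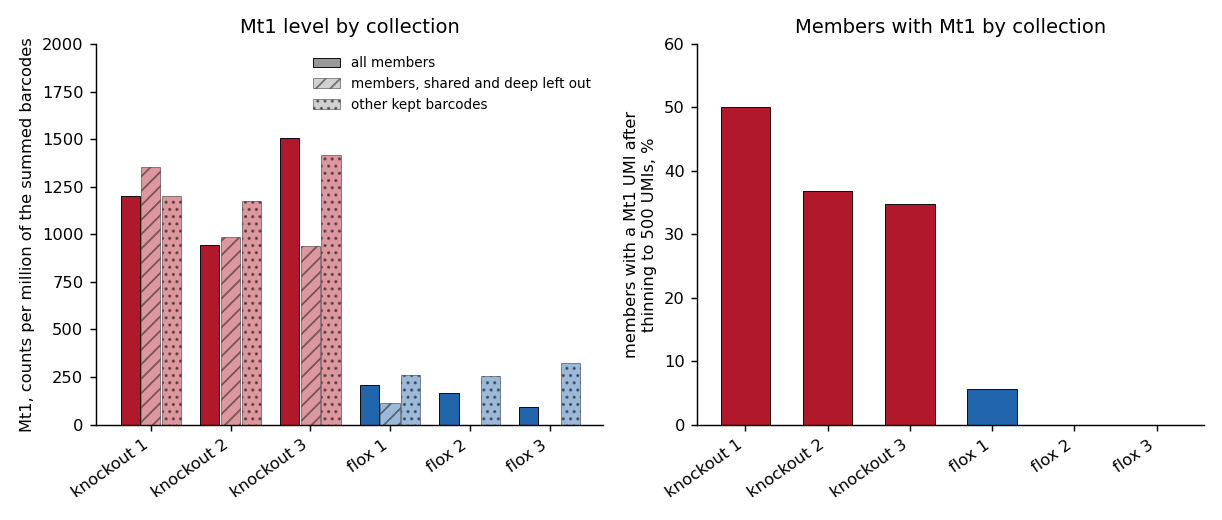
Left, *Mt1* in CPM of summed barcodes for all members, the reduced set and the other kept barcodes of each collection; right, share of members with a *Mt1* UMI after thinning to 500 UMIs. The 3 knockout collections (red) stand above the 3 flox collections (blue) in each measure, with 2 flox collections at 0 in the reduced set and after thinning.

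Among the other genes outside the rule with the smallest p, *Sct* stood at 2.14 (SE 0.62, edgeR adjusted p = 0.996) and at 1.06 in the reduced set. *Runx1t1* stood at 2.03 (SE 0.60) and at 1.62 in the reduced set, and *Cacna1a* at 1.89 (SE 0.55) and 1.0. *H2-Aa*, an MHC class II gene, stood at 2.22 (SE 0.48), with 3, 13 and 40 UMIs in knockout and 3, 7 and 4 in flox members, and *Hspa1a*, a heat shock gene, at 2.0 (SE 0.48), with 4, 15 and 53 UMIs in knockout and 7, 9 and 5 in flox members. Within the barcode-sharing sets their log2 ratios were 0.11 (*H2-Aa*) and -0.16 (*Hspa1a*) in set 1 and 3.02 and 3.05 in set 2. Both were under the count minimum in the reduced set, where *H2-Aa* had 1, 5 and 0 UMIs in the knockout and 2, 0 and 4 in the flox, and *Hspa1a* 2, 13 and 4 in the knockout and 6, 1 and 1 in the flox. On the lower side stood the goblet genes *Zg16* (-1.67, SE 0.40) and *Fcgbp* (-2.21, SE 0.56), and *Cftr*, *Agpat5*, *Zfp106* and *Asph*. None of these passed the test. *Zg16* had 404 UMIs in flox collection 3, 401 of them in its deepest member, and all 6 lower genes were under the count minimum in the reduced set.

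The endocrine gene lists held no call between the genotypes. Of 9 tested transcription factors all 9 had positive values (median 0.90), as had 5 of 5 genes of the granule list (0.67) and both hormones (1.54), against a median of 0.02 over all 2672 genes. In the reduced set 4 of 6 transcription factors (0.74), 4 of 4 genes of the granule list (0.53) and 1 of 2 hormones (0.33) had positive values, with *Gip* at -0.39 (SE 1.42). The 12 genes of the rule took 3.92%, 4.41% and 1.21% of member counts in the knockout and 1.43%, 2.81% and 0.654% in the flox. *Chgb* differed in the reduced set by -0.24 (SE 0.36), against 0.90 (SE 0.52) over all members. *Chga*, *Tac1*, *Tph1* and *Ghrl* were also negative in the reduced set. Positive there were *Pyy* (1.31, SE 0.47), *Cpe* (0.79, SE 0.32), *Cck*, *Gcg*, *Rfx6* and *Neurod1*. These values of rule genes are given without a test. Goblet markers had 1 positive value of 8 tested (median -1.68) and Paneth markers 0 of 7 (median -1.06), and their part in the endocrine values was not tested.

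Whether the genotype difference itself differed between members and other kept barcodes was tested in 1 fit over both. Of 8531 genes, 3 passed by edgeR (0.0352%) and 0 by DESeq2, with 307 at an unadjusted p under 0.05 by edgeR. These were *Ang4*, a Paneth cell gene, *Clca3* and the goblet gene *Fcgbp*, each with a more negative difference in members than in the others. *Fcgbp* had 4, 8 and 26 UMIs in knockout members and 28, 26 and 140 in flox members, and 139 of the 140 were in 1 member. With shared and deep barcodes left out, 0 of 7835 genes passed (0%).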

How the data were processed

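Drop-seq counts of 6 collections were used, 3 per genotype. Per the labels and the submitters' processing notes, the authors processed freshly isolated crypt cells with STAR 2.6 on build mm10 and deposited raw UMI counts per gene and barcode. The annotation release, the selection of barcodes and the collapsing of UMIs are not described there. The 6 tables held 1228337 to 3146909 counts each and 13191 barcodes in all, of which 37.1% passed at least 300 genes and at most 25% mitochondrial counts. Doublets were not called. The members, the gene lists and the tests were chosen with earlier results of these data known.

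Counts were summed per biological replicate and tested with edgeR 4.0.16 (R 4.3.3, TMM scaling, filterByExpr with a minimum count of 10, quasi-likelihood test, Benjamini-Hochberg threshold 0.05). DESeq2 1.42.0 was the alternative tool. Members against others, and amine against peptide type, had the biological replicate as a block. Single values were compared by exact permutation (scipy 1.17.1). Since the labels do not say whether replicates were separate mice, p-values measure the spread between these samples. Intervals and limits from counts of 0 cover counting error only. Thinning drew 500 UMIs from each barcode. Named genes were the largest changes past the threshold per direction and per gene list, filled with the smallest p where few passed. The edgeR steps were tested on simulated data. Sequences are from RefSeq and the position of *Mt1* from GENCODE. Alternatives covered membership, barcode filters, scaling, the low-count filter, the tool, the block and each left-out collection.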

Additional observations from a re-analysis of the deposited data

Results flagged for a closer look

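In the test of the genotype difference in members against that in the other kept barcodes, 3 genes passed by edgeR. The log2 value of *Ang4* was -2.33 (SE 0.48; adjusted p by edgeR = 0.0106), with a difference of -1.73 in members and 0.56 in the others. *Clca3* stood at -2.27 (SE 0.52, edgeR adjusted p = 0.0323), with -1.83 in members and 0.49 in the others. *Fcgbp* stood at -2.37 (SE 0.51, edgeR adjusted p = 0.0132), with -2.21 in members and 0.19 in the others. With shared and deep barcodes left out these values were -0.64, 0.05 and -1.98, and none passed.

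Outside the barcode filter, 7 of 8301 barcodes carried UMIs of 3 or more of the 12 genes. All 7 had fewer than 300 genes, with 102 to 481 counts, a median of 290. A median of 28 UMIs, 12.3% of their counts, fell on the 12 genes. Of these 7, 1 came from the knockout and 6 from the flox.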

How the results depend on the processing

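Between knockout and flox members, 0 genes passed. The count was 1 with membership by 2 of 6 non-hormone genes, with at most 10% mitochondrial counts, with single collections, with RLE scaling, with DESeq2 and with shared and deep barcodes left out over single collections. It was 2 with the barcode-sharing set as a term, 11 with no low-count filter and 0 to 45 when collections or biological replicates were left out, with 45 without flox biological replicate 1. Same-numbered collections did not deviate together (r = -0.085, -0.13 and 0.18). A replicate block on the collection number gave 4 calls, and a replicate block on the biological replicate gave 0.

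Members against other barcodes gave 229 calls. The count was 888 with at least 4 of the 12 genes, 1092 when chosen after thinning, 636 with at most 10000 counts, 814 without mixed barcodes, 710 without shared barcodes, 853 without shared and deep barcodes, 414 with no low-count filter and 141 to 254 without single collections. Without immune-marked barcodes among the others, *Igkc* stood at 1.13 and *Gzma* at 2.26.

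Amine against peptide type gave 2 calls. The count was 4 with at least 4 genes, 1 with 2 of 6 genes, 8 after thinning, 5 with at most 10000 counts, 10 without shared barcodes, 14 with no low-count filter, 1 with no replicate block and 0 with at most 10% mitochondrial counts, without mixed barcodes or with single collections. It was 0 to 4 without single collections. The test of the genotype difference between members and others gave 3 calls. It gave 1 without mixed barcodes and with single collections, 5 with RLE scaling, 0 with at least 4 genes, after thinning, with at most 10000 counts, without shared barcodes, without shared and deep barcodes and with DESeq2, and 0 to 12 without single collections.

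The difference in the amine-type share lay between -17.5 and 1.33 percentage points without single collections, positive without flox replicate 3. That in the share with 2 or more hormones, -3.79, turned to 1.03 with at least 4 genes, 2.46 when chosen after thinning, 4.08 with at least 600 genes, 0.689 without shared barcodes, 1.79 without shared and deep barcodes and 9.37 with members thinned, and lay between -13.8 and -1.67 without single collections. The cause of these shifts was not tested. With 8 to 25 members per collection, changes of 2-fold between genotypes were mostly below detection.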
